A study of Mus musculus with 19 samples.

Results

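Apoptotic cells are recognised by phagocytes through surface receptors and through secreted bridging molecules that bind phosphatidylserine on the dying cell. The genes described here are 8 of the 16941 genes in the count tables, chosen by symbol: the receptors Mertk, Itgav, Itgb5, Itgb3 and Lrp1 and the bridging molecules Gas6, Pros1 and Mfge8. The rule that picked them is a list of symbols and uses no measured value, although the list was drawn up with earlier results of these data known. Each of the 8 passed the filter on low counts and was among the 14113 genes tested.

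Microglia, the macrophages that live in the brain, had been cultured from cortices of 10 to 11 months old C57BL/6 mice. These mice were wild type (WT) or carried the hAPPJ20 transgene (APP), a human amyloid precursor protein with the Swedish and Indiana mutations driven by the PDGF promoter. All groups shared a culture of 4 weeks with 10% serum and M-CSF (macrophage colony-stimulating factor) at 5 ng/mL. Lipopolysaccharide (LPS, an activator of Toll-like receptor 4 from bacterial walls) was then given at 100 ng/mL, or medium alone as vehicle; exposure took 6 h and recovery another 16 h. The 19 libraries fall into 5 APP LPS, 5 APP vehicle, 5 WT LPS and 4 WT vehicle libraries. No label ties a library to its own animal or culture, and p-values therefore speak only of the spread between libraries, part of which could be technical.

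Mertk is a receptor tyrosine kinase of the TAM family (Tyro3, Axl, Mertk). Its ligands Gas6 and protein S, the product of Pros1, are vitamin K-dependent proteins that bind phosphatidylserine at one end and the receptor at the other. Mfge8 carries phosphatidylserine to the αv integrins, which pair the Itgav chain with β5 (Itgb5) or β3 (Itgb3), and Lrp1 is a large endocytic receptor of the LDL receptor family that takes up calreticulin-marked cells, apolipoprotein E and many protease complexes. Microglia and other macrophages use Mertk and the αv integrins to engulf dying cells and debris without an inflammatory response.

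Library totals were 13065257 to 31248988 estimated counts, with a median of 21918747, and a floor of 3 counts corresponded to 0.0963 to 0.249 CPM (counts relative to library size). All levels below are CPM on TMM-scaled library sizes and are compared between libraries for 1 gene at a time. The treatment was visible in the summed expression of known targets: the summed CPM of 14 LPS-response genes was 9481 to 15006 CPM in LPS libraries and 1770 to 7577 CPM in vehicle libraries. The cells carried macrophage transcripts, with the 20 macrophage and microglia markers summing to 4422 to 24703 CPM. Of the defining microglial markers, Tmem119 was at 0 in 3 libraries and P2ry12 in 6. Markers of border-associated macrophages summed to 787 to 6523 CPM, with medians of 2823 CPM for Pf4 and 739 CPM for Ms4a7, but 1.16 CPM for Lyve1. The 4 libraries numbered 57 to 60, 1 in each group, stood apart: their macrophage markers summed to 4422 to 8743 CPM, against 14152 to 24703 CPM in the other 15 libraries. Replicate 5 of APP LPS, APP vehicle and WT LPS and replicate 4 of WT vehicle are these libraries.

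To show what lies in front of these genes, the 250 bases upstream of the annotated start were taken from RefSeq (GRCm38.p6) for the 7 members with an entry, and 4 are printed here, 5′ to 3′ on the gene's strand. Mertk and Gas6 are shown because their transcripts were lower with LPS in each pair of libraries described below, Itgb5 as the β chain called below (Itgb3, also lower in 8 of 9 pairs, had no entry), and Itgav as the chain that was not lower. Capitals mark every match to the motifs searched. The Mertk window is chr2:128698665-128698914 on the plus strand, the Gas6 window chr8:13494536-13494785 on the minus strand, the Itgb5 window chr16:33829415-33829664 on the plus strand and the Itgav window chr2:83724147-83724396 on the plus strand.
Mertk: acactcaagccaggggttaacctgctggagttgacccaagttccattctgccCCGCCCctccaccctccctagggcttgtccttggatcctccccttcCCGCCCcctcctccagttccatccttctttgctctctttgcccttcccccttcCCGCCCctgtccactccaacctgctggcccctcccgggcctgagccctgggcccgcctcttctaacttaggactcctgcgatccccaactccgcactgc
Gas6: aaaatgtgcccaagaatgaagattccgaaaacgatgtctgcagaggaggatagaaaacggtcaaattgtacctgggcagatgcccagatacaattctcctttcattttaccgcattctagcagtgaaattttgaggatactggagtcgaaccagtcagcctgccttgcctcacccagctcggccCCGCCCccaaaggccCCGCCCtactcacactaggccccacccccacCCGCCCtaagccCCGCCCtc
Itgb5: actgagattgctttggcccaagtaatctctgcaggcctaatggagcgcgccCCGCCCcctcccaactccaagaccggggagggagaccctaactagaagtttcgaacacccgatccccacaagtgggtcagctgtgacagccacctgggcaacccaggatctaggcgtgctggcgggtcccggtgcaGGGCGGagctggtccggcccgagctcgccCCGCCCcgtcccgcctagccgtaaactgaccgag
Itgav: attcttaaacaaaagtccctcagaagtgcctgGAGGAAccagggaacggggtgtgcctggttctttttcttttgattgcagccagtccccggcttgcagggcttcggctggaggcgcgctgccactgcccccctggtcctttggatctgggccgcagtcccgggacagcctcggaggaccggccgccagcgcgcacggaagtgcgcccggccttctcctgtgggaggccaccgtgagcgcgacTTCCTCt

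The motifs were searched on both strands, with overlapping matches counted: the GC box GGGCGG, AP-1 as TGANTCA, the nuclear receptor element AGGTCA, the PU.1-type element GAGGAA and the TATA box TATAAA. The Mertk window held 3 GC boxes, the Gas6 window 4, the Itgb5 window 3 and the Itgav window 0. The Itgav window held 2 PU.1-type elements. Of the 7 members, 6 had a GC box, which 32.7% of 32851 promoter windows of the same length held, and 2 (Mfge8 and Itgav) had a PU.1-type element, which 23.3% held. None of the 7 windows matched AP-1, the nuclear receptor element or the TATA box, which were found in 6.75%, 14% and 12.4% of all windows. A missing match says only that these letters are not in this window.

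Mertk transcripts, for the kinase receptor itself, varied more between libraries, as the ratio of highest to lowest, than those of any other member except Itgb3. Mertk was at 56.1, 80.2, 84.0, 72.0 and 11.0 CPM in the APP LPS libraries, in replicate order, and at 78.9, 106, 109.6, 95.6 and 22.8 CPM in the APP vehicle libraries. In WT it was at 92.6, 98.9, 66.4, 126 and 26.7 CPM with LPS and at 163, 107, 162 and 65.9 CPM with vehicle. The groups overlapped, and the lowest library of every group was the one numbered 57 to 60, in which macrophage markers were low as well; fewer cells of a type and less RNA per cell cannot be told apart in these bulk libraries. Group means were 60.7 ± 29.7 CPM in APP LPS, 82.6 ± 35.5 CPM in APP vehicle, 82.2 ± 37.7 CPM in WT LPS and 124 ± 46.9 CPM in WT vehicle (SD, n = 5, 5, 5 and 4). APP LPS was thus lowest, followed by WT LPS, APP vehicle and WT vehicle, and neighbours in this order did not differ beyond their spread.

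Among the integrin chains, Itgb5, the β chain of αvβ5, separated the treatments in most but not all libraries. Itgb5 was at 99.3, 76.5, 64.0, 76.7 and 62.5 CPM in APP LPS and at 166, 167, 159.5, 95.9 and 82.5 CPM in APP vehicle. WT libraries had 66.2, 73.8, 104, 89.0 and 65.9 CPM with LPS and 157, 159, 96.8 and 60.9 CPM with vehicle. The vehicle libraries formed a high set of 5 libraries, all numbered 3 to 22, and a low set of 4, all numbered 41 to 60, that overlapped the LPS libraries. Group means were 75.8 ± 14.7 CPM in APP LPS, 134 ± 41.3 CPM in APP vehicle, 79.8 ± 16.6 CPM in WT LPS and 119 ± 48.2 CPM in WT vehicle (SD, same n).

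Itgav, the α chain shared by both integrins, followed neither treatment. Itgav was at 92.7, 31.7, 23.8, 48.2 and 80.2 CPM in APP LPS and at 87.6, 55.6, 50.8, 41.4 and 75.9 CPM in APP vehicle. In WT it was at 28.2, 39.97, 49.4, 46.2 and 66.5 CPM with LPS and at 38.0, 32.5, 35.3 and 50.1 CPM with vehicle. Its values spread most within APP LPS, where the highest and the lowest libraries of all 19 stood. Group means were 55.3 ± 30.1, 62.3 ± 18.9, 46.1 ± 14.03 and 38.99 ± 7.76 CPM for APP LPS, APP vehicle, WT LPS and WT vehicle (SD), with every pair of groups overlapping.

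Itgb3, the β chain of the vitronectin receptor αvβ3, had 1 library with almost no counts. Itgb3 was at 0.0411, 7.74, 12.6, 6.23 and 9.44 CPM in APP LPS and at 13.7, 7.90, 16.2, 7.28 and 14.6 CPM in APP vehicle. WT libraries had 8.10, 5.99, 2.64, 14.3 and 11.6 CPM with LPS and 17.4, 16.97, 11.9 and 13.2 CPM with vehicle. The value of 0.0411 CPM in APP LPS replicate 1 is 1 count, below the floor, and the other 18 libraries were at 2.64 CPM or more.

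Lrp1 was lower in most LPS libraries than in most vehicle libraries. Lrp1 was at 350.1, 219, 337, 429 and 436 CPM in APP LPS and at 523, 366, 535, 529.9 and 497 CPM in APP vehicle. In WT it was at 188, 281, 249, 441 and 374 CPM with LPS and at 465, 392, 497 and 362 CPM with vehicle. In APP a single vehicle library, replicate 2, lay within the LPS range, and in WT the LPS libraries with 441 and 374 CPM lay within the vehicle range. Group means were 354 ± 87.9 CPM in APP LPS, 490.1 ± 70.9 CPM in APP vehicle, 307 ± 101 CPM in WT LPS and 429 ± 62.7 CPM in WT vehicle (SD). Libraries 57 to 60, at 362 to 497 CPM, were inside the range of the other 15 for Lrp1, 188 to 535 CPM.

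Of the bridging molecules, Gas6 had the widest gap between treatments. Gas6 was at 273, 79.5, 167, 115 and 84.2 CPM in APP LPS and at 349, 334, 534, 196 and 103 CPM in APP vehicle. WT libraries had 179.5, 197, 175, 264 and 78.3 CPM with LPS and 500.5, 513, 266 and 105 CPM with vehicle. All 5 vehicle libraries numbered 3 to 22 were above every LPS library, whereas the vehicle libraries numbered 41 to 60 lay among the LPS libraries. Group means were 144 ± 80.1 CPM in APP LPS, 303 ± 164 CPM in APP vehicle, 179 ± 66.3 CPM in WT LPS and 346 ± 197 CPM in WT vehicle (SD).

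Pros1, the gene of protein S, was at 92.3, 40.7, 127, 48.6 and 93.1 CPM in APP LPS and at 177, 85.9, 205, 131 and 100.0 CPM in APP vehicle. In WT it was at 115, 122, 139, 145 and 88.5 CPM with LPS and at 213, 165, 131 and 98.5 CPM with vehicle. The groups overlapped, with 2 APP LPS libraries, replicates 2 and 4, below every other library. Its group means were 80.4 ± 35.6, 139.7 ± 50.6, 122 ± 22.2 and 152 ± 48.8 CPM for APP LPS, APP vehicle, WT LPS and WT vehicle (SD). For Mertk, Gas6 and Pros1 alike, the means were lowest in APP LPS, followed by WT LPS, APP vehicle and WT vehicle, with overlap between all neighbours.

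Mfge8, the bridge to the αv integrins, showed no separation. Mfge8 was at 25.7, 23.5, 19.9, 32.1 and 46.0 CPM in APP LPS and at 41.6, 32.01, 20.0, 23.4 and 33.9 CPM in APP vehicle. WT libraries had 11.8, 33.8, 47.7, 35.2 and 42.6 CPM with LPS and 37.3, 64.7, 21.7 and 27.0 CPM with vehicle. Its group means were 29.4 ± 10.3, 30.2 ± 8.60, 34.2 ± 13.7 and 37.7 ± 19.1 CPM for APP LPS, APP vehicle, WT LPS and WT vehicle (SD).

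**Figure D1:**
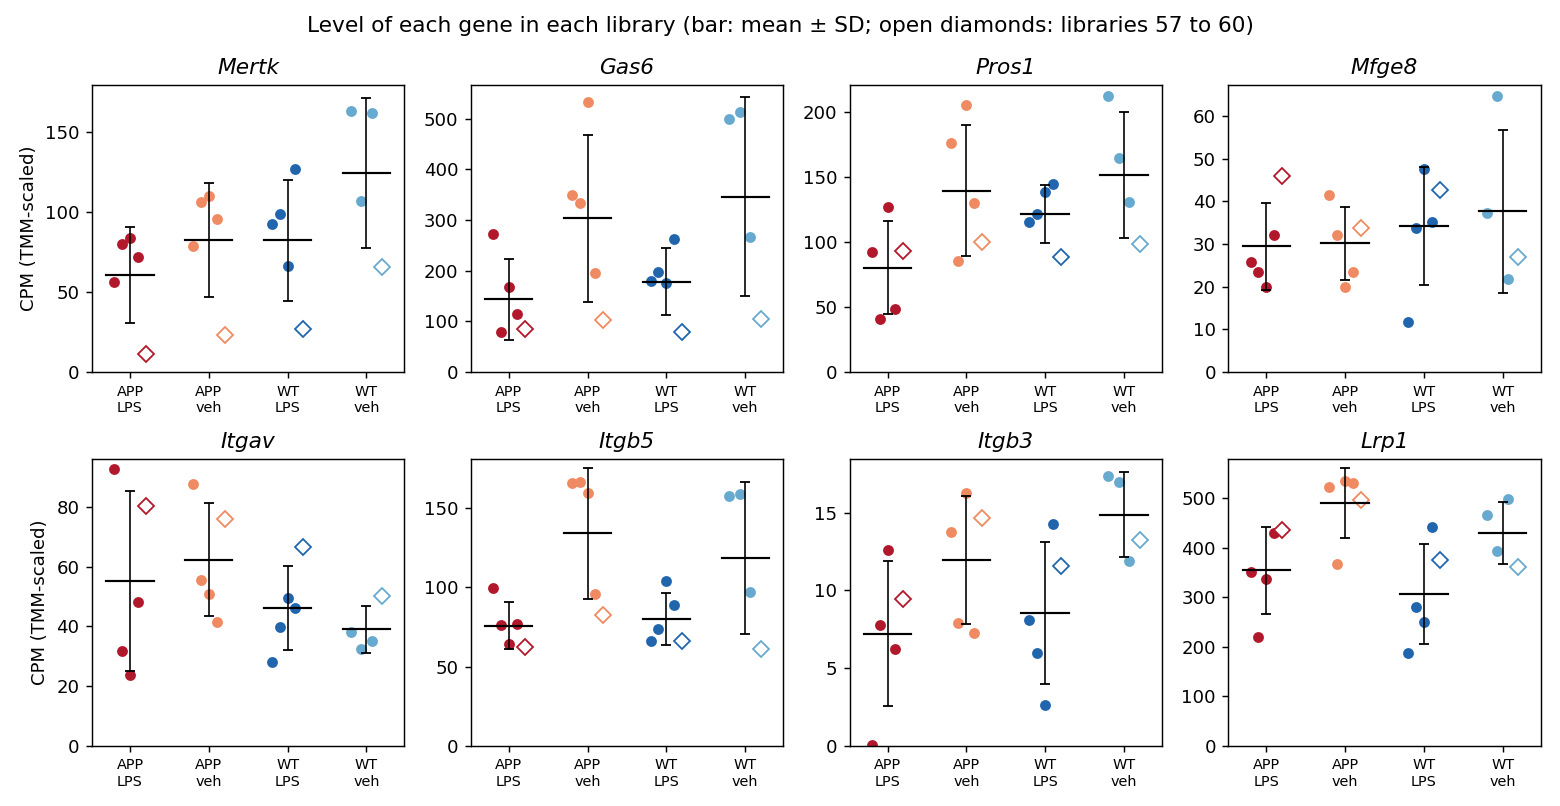
CPM (TMM-scaled, linear axes) of the 8 genes in each of the 19 libraries, by group, with the group mean and SD; open diamonds are the libraries numbered 57 to 60. The diamonds are the lowest Mertk values of every group (11.0 to 65.9 CPM), the Gas6 vehicle libraries span 103 to 534 CPM, and a single Itgb3 library lies at 0.0411 CPM.

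The first question was whether LPS changed these transcripts, and it was answered first without using library numbers. In the edgeR quasi-likelihood fit with 1 coefficient per group, 0 of 8 members passed an adjusted p of 0.05 for LPS against vehicle in APP, in WT or averaged over both; the share of all genes called was 0% in APP, 0% in WT and 0.0213% (3 genes, Il1b, Tnf and Apoe) averaged over both. Averaged over genotypes, the log2 change was -1.02 ± 0.32 (SE) for Gas6 (adjusted p = 0.497), -0.70 ± 0.19 for Itgb5 (0.445), -0.56 ± 0.22 for Pros1 (0.703), -0.52 ± 0.34 for Mertk (0.963) and -0.48 ± 0.16 for Lrp1 (0.604). For Itgb3 it was -0.77 ± 0.53, for Mfge8 -0.09 ± 0.26 and for Itgav 0.04 ± 0.24, each with an adjusted p of 1. At an unadjusted p under 0.05, 4 members were lower (Gas6, Itgb5, Pros1 and Lrp1), against 3.02% of all genes. The common dispersion of this fit was 1.05, and the 95% interval for Gas6 ran from -1.68 to -0.35.

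The libraries carry numbers, and 9 pairs of consecutive numbers each hold a vehicle and an LPS library of 1 genotype, 5 in APP and 4 in WT; WT LPS replicate 1 has no partner. In APP these pairs are also the replicate numbers of the titles, and in WT they are not. The labels do not say what a shared number means. The deviations from the group means of paired libraries correlated with r of 0.130 to 0.352 in APP and of 0.0959 to 0.292 in WT. The pair numbered 41 and 42, at 0.0959, was below the limit of 0.1 used here to accept a pairing. By this limit the pairing is accepted in APP and not in WT. Mismatched pairs were not compared in APP, and in WT pairs by title number gave -0.091 to 0.066. The highest values, 0.352 and 0.292, came from the pairs 59 and 60 and 57 and 58, whose libraries all had low macrophage markers. The limit therefore does not settle what consecutive libraries share.

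Within pairs, Mertk and Gas6 were lower with LPS in 9 of 9, which was true of 1.06% of all genes tested. Mertk differed by a log2 CPM of -1.30 to -0.35 (LPS minus vehicle), with the largest differences, -1.30 and -1.05, in the pairs 57 and 58 (WT) and 59 and 60 (APP), whose Mertk levels were lowest. Gas6 differed by -2.07 to -0.01, with 4 pairs below -1.30 (7 and 8, 9 and 10, 11 and 12, 21 and 22). Itgb5, Lrp1, Pros1 and Itgb3 were lower with LPS in 8 of 9 pairs. The pair 41 and 42 was the exception for Pros1 (0.14) and Itgb3 (0.26), and the pair 57 and 58 the exception for Itgb5 (0.12) and Lrp1 (0.05). Mfge8 was lower in 5 of 9 pairs and Itgav in 2 of 9.

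**Figure D2:**
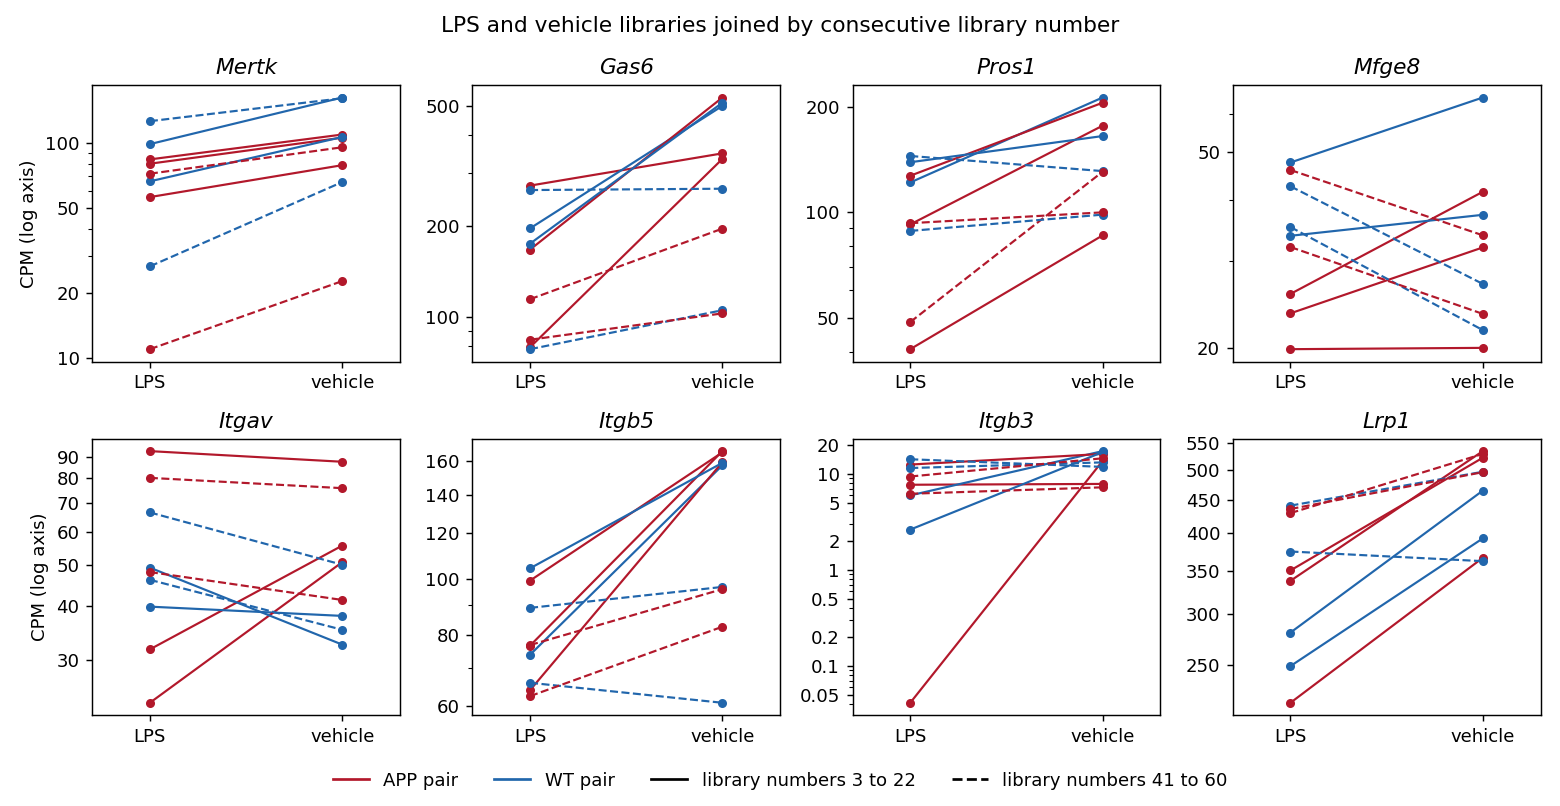
CPM (log axes) of each gene in the LPS library and the vehicle library of the 9 pairs of consecutive library numbers; red lines are APP pairs and blue lines WT pairs, solid for libraries 3 to 22 and dashed for libraries 41 to 60. Every line of Mertk and of Gas6 is lower at its LPS end, while Mfge8 has 5 pairs lower and 4 higher with LPS.

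With the pair as a block, the same edgeR test averaged over WT and APP called 5 of 8 members, all lower with LPS, against 0.68% of all genes called lower. Gas6 fell with LPS by a log2 change of -0.93 ± 0.18 (SE; adjusted p = 0.0112), equal to a level 47.6% below that with vehicle. Mertk fell by 0.65 ± 0.13 on the log2 scale (adjusted p = 0.0117), or 36.4%. Lrp1 (-0.44 ± 0.10, adjusted p = 0.0278), Itgb5 (-0.60 ± 0.14, 0.0409) and Pros1 (-0.56 ± 0.14, 0.0468) also fell. Itgb3 at -1.03 ± 0.69 (0.796), Mfge8 at 0.07 ± 0.21 (0.992) and Itgav at 0.03 ± 0.17 (0.999) did not pass. For Itgb3, the pair 3 and 4 differed by a log2 CPM of -6.70, with 1 count in its LPS library. The median Itgb3 difference over the 9 pairs was -0.37, so its estimate leans on that library. The 95% intervals of Mfge8 (-0.38 to 0.52) and Itgav (-0.32 to 0.39) leave room for changes in either direction. These calls rest on the pairing, which the labels do not state and which the WT pair 41 and 42 did not meet.

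The 5 calls differed in how far they depended on single pairs. Leaving out each pair in turn, Mertk (adjusted p 0.0102 to 0.0437) and Gas6 (0.00222 to 0.0405) passed in 9 of 9 fits. Itgb5 (0.0246 to 0.165) and Lrp1 (0.0140 to 0.109) passed in 4 of 9: both missed the threshold without any 1 of the 5 pairs numbered 3 to 22 and passed without any 1 of the 4 pairs numbered 41 to 60. Pros1 (0.00786 to 0.185) passed in 2 of 9, without the pair 41 and 42 or the pair 59 and 60. Without libraries 57 to 60 altogether, Gas6 (-1.10, adjusted p = 0.00171), Lrp1 (-0.55, 0.00545), Itgb5 (-0.75, 0.0101) and Pros1 (-0.67, 0.0121) passed and Mertk (-0.51, 0.0597) did not.

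Within genotypes, fewer members passed. In APP, where the pairing was accepted, Pros1 fell by 0.85 ± 0.18 on the log2 scale (adjusted p = 0.0396), 1 of 8 members against 0.291% of all genes called lower. Gas6 (-1.03 ± 0.25, 0.0691), Itgb5 (-0.78 ± 0.19, 0.0803), Lrp1 (-0.50 ± 0.13, 0.116) and Mertk (-0.54 ± 0.17, 0.254) did not pass in APP. With the 10 APP libraries fitted alone, the adjusted p of Pros1 was 0.0770 and 0 of 8 members passed. In WT, 0 of 8 members passed, against 0.0283% of all genes called lower, with Mertk at -0.76 ± 0.19 (0.211), Gas6 at -0.84 ± 0.27 (0.575) and Pros1 at -0.27 ± 0.20 (1). DESeq2 with the same pairs called more genes than edgeR: 716 averaged over genotypes, 615 in APP and 185 in WT, of 14113 tested. Among them were the same 5 members averaged over genotypes, Mertk, Pros1, Itgb5 and Lrp1 in APP and Mertk in WT.

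**Figure D3:**
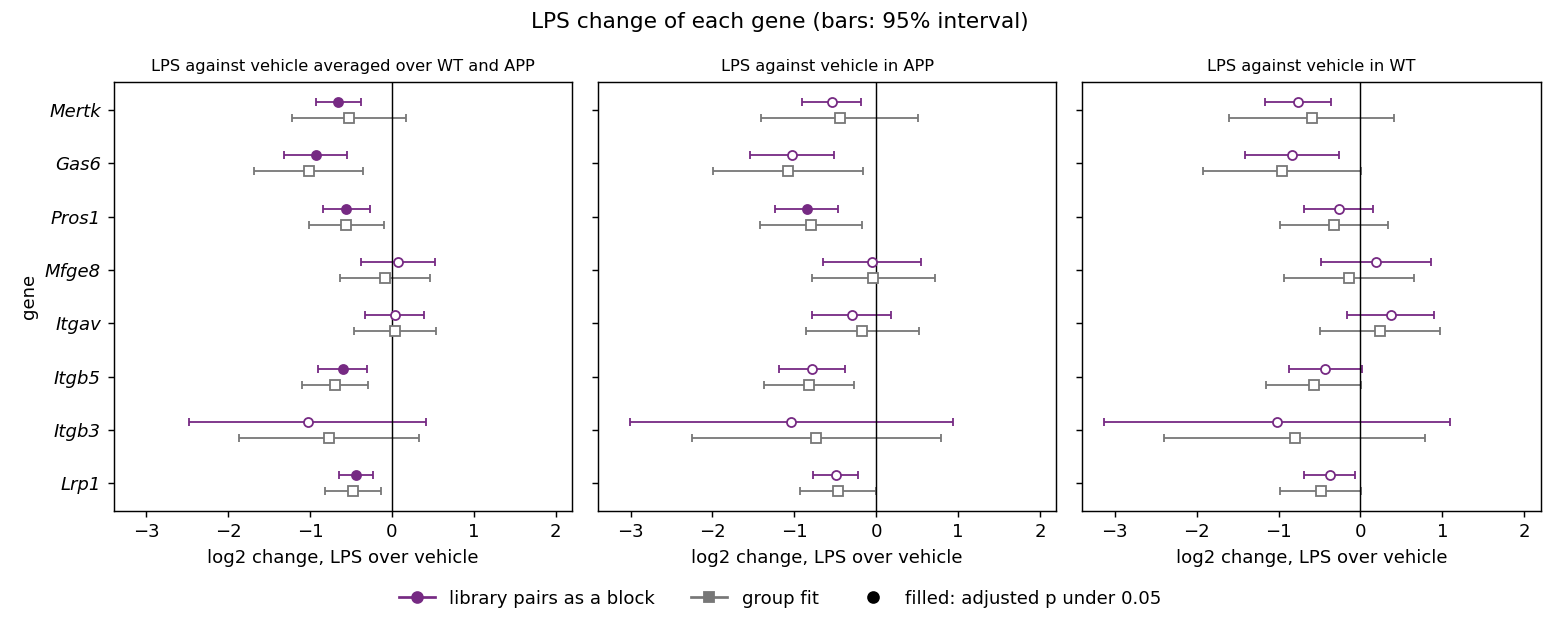
Log2 change of LPS over vehicle for each gene, averaged over genotypes, in APP and in WT, with 95% intervals; circles are the fit with library pairs as a block, squares the fit by group, and filled symbols have an adjusted p under 0.05. Filled symbols are the 5 calls averaged over genotypes (Mertk, Gas6, Pros1, Itgb5, Lrp1) and Pros1 in APP.

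The second question was whether genotype mattered. With vehicle, APP against WT gave 0 of 8 members called (0% of all genes), with log2 changes of 0.68 ± 0.36 for Itgav, -0.59 ± 0.49 for Mertk and -0.32 ± 0.38 for Mfge8, each with an adjusted p of 1. After LPS, 0 of 8 members were called (0% of all genes), and Pros1 was at -0.60 ± 0.30 and Mertk at -0.44 ± 0.46, again with an adjusted p of 1. At an unadjusted p under 0.05, 0 members were lower in APP in either comparison, against 0.822% of all genes with vehicle and 2.37% after LPS. The 95% intervals, for example -1.60 to 0.42 for Mertk and -1.16 to 0.77 for Gas6 with vehicle, are wide, and differences inside them were not detectable here. The LPS effect itself was not shown to differ between genotypes: the interaction called 0 of 8 members (0% of all genes) with groups alone and 0 of 8 (0%) with pairs, where it was -0.58 ± 0.27 for Pros1 and -0.67 ± 0.34 for Itgav, each with an adjusted p of 1.

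The pairs fell into 2 ranges of library numbers, 3 to 22 and 41 to 60. This split was added after the members' values were seen, so the changes within ranges are given as a description, with no test. In the pairs numbered 3 to 22, the log2 change with LPS was -1.40 ± 0.18 for Gas6, -0.98 ± 0.15 for Itgb5, -0.67 ± 0.10 for Lrp1, -0.75 ± 0.19 for Pros1 and -0.54 ± 0.16 for Mertk. In the pairs numbered 41 to 60, it was -0.38 ± 0.19 for Gas6, -0.18 ± 0.17 for Itgb5 and -0.77 ± 0.19 for Mertk. There Lrp1 was at -0.15 ± 0.11 and Pros1 at -0.37 ± 0.21. The difference between ranges was -1.03 ± 0.26 for Gas6, -0.52 ± 0.14 for Lrp1 and -0.79 ± 0.22 for Itgb5. For Pros1 it was -0.38 ± 0.28, and for Mertk it had the opposite sign, 0.24 ± 0.25. A test on a split chosen from the same values could not decide whether the ranges differ, and they were not shown to differ for any member. Mfge8 was lower with LPS in all 5 pairs of the lower range, although the pair 11 and 12 differed by a log2 CPM of only -0.009. It was higher in all 4 pairs of the upper range, with a difference between ranges of -0.91 ± 0.37.

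The vehicle libraries of the ranges also differed in inflammatory transcripts. The 14 LPS-response genes, which include Il1b, Tnf, Cxcl1 and Nfkbia, summed to 1770 to 4037 CPM in the 5 paired vehicle libraries numbered 3 to 22 and to 5529 to 7577 CPM in the 4 numbered 41 to 60. They were higher with LPS in 9 of 9 pairs, by 1.66 to 6.33 times. The part of this difference in the members' changes was not tested, and what the ranges stand for is not given in the sources used here.

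**Figure D4:**
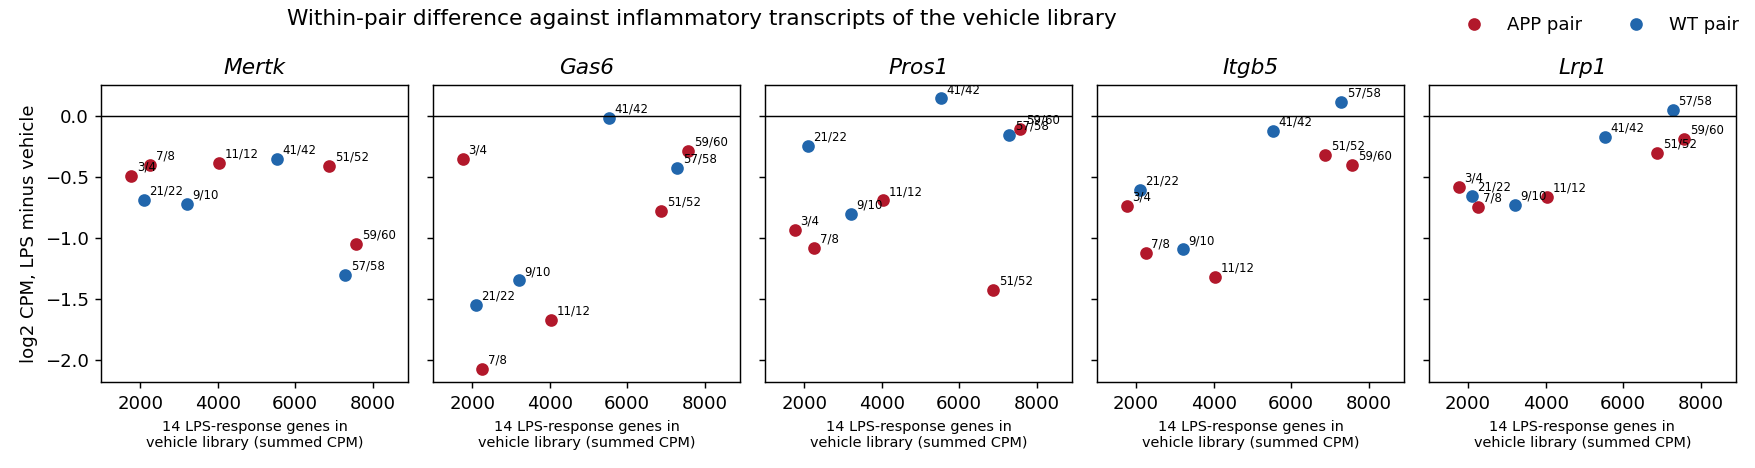
Within-pair log2 CPM difference, LPS minus vehicle, of the 5 genes called with library pairs, against the summed CPM of 14 LPS-response genes in the pair's vehicle library; red points are APP pairs, blue points WT pairs, labelled by their library numbers. Pairs whose vehicle library lies between 1770 and 4037 CPM have Itgb5 differences below -0.60 and Lrp1 differences below -0.57, and the 4 others lie nearer to 0; Mertk is lowest in the pairs numbered 57 and 58 and 59 and 60.

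The members were then set beside other genes of apoptotic cell clearance, with the LPS change taken from the fit with pairs averaged over WT and APP. Over all 14113 genes the median log2 change was -0.04, and over the 8 members it was -0.58. The members do not stand apart by this median. It was -0.71 over the 15 other receptors for apoptotic cells, -0.99 over border macrophage markers and -0.91 over endothelial markers. Over other bridging molecules it was -0.16 and over engulfment genes -0.08. Several markers had few counts, with Cd163 at 0 in 3 libraries and Tie1 in 7. Members called lower were 5 of 8, against 1 of 15 other receptors, 1 of 8 border macrophage markers and 0 of 10 endothelial markers. This fit called 0.815% of all genes higher and 0.68% lower, which also applies to the counts below. Of 15 other tested receptors for apoptotic cells, 0 rose and 1 fell: Trem2, a lipid-sensing receptor of microglia, averaged 66.4 ± 40.2 CPM in LPS libraries and 146 ± 72.5 CPM in vehicle libraries (SD, n = 10 and 9), a log2 change of -1.29 ± 0.16 (adjusted p = 0.00017). The other TAM receptors, picked for their kinship to Mertk and not by the naming rule, were Axl, at 72.8 ± 41.0 CPM with LPS and 66.98 ± 34.8 CPM with vehicle and lower with LPS in 3 of 9 pairs, and Tyro3, at 1.08 ± 1.49 CPM with LPS and 2.62 ± 3.00 CPM with vehicle.

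Other bridging molecules and opsonins moved in both directions, with 3 of 17 rising, against 0.815% of all genes called higher, and 5 falling, against 0.68% called lower. Complement C3 rose to 45.3 ± 14.7 CPM in LPS libraries, against 20.9 ± 9.08 CPM in vehicle libraries (log2 change 1.21 ± 0.26, adjusted p = 0.0187). Cd14, a co-receptor for LPS that also binds apoptotic cells, rose to 154 ± 66.5 CPM, against 71.9 ± 30.3 CPM (0.99 ± 0.14, 0.000736). Apoe, a lipid carrier taken up through Lrp1, fell to 222 ± 72.4 CPM with LPS, against 441 ± 130.1 CPM with vehicle (-0.90 ± 0.12, 0.000251). Lgals3, galectin-3, which is described as a further Mertk ligand, fell by 0.78 ± 0.11 on the log2 scale (0.000496).

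Downstream of these receptors, of 23 genes for engulfment signalling and actin remodelling, 0 were called. Rac1, the GTPase that drives cup formation, was at -0.08 ± 0.09 (adjusted p = 0.933) and lower with LPS in 5 of 9 pairs. Abca1, a lipid exporter, was at -0.33 ± 0.10 (0.130) and lower in 9 of 9 pairs, whereas Arpc2 was lower in 3 of 9 and Cdc42 in 2 of 9. With 1.5% of all genes called in this fit, a count of 0 in a list of this size does not show that these genes were unaffected. Of 10 other integrin chains and adaptors, 0 were called, with Itgb1 at -0.01 ± 0.09. Of 6 genes of the vitamin K cycle, which modifies Gas6 and protein S, 0 were called, with Vkorc1 at -0.01 ± 0.17. Among 16 partners and ligands of Lrp1, 0 rose and 2 fell: Plat, tissue plasminogen activator (-0.72 ± 0.17, 0.0329), and Dab2, an endocytic adaptor (-0.46 ± 0.11, 0.0449).

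Of 16 regulators of these receptors, 1 rose and 1 fell, where 0.815% of all genes were called higher and 0.68% lower. Socs3, an inhibitor of cytokine receptor signalling, rose (log2 change 1.35 ± 0.23, adjusted p = 0.00355). Among 12 genes for find-me and don't-eat-me signals, 0 rose and 1 fell: Cx3cr1, the fractalkine receptor, averaged 40.4 ± 34.4 CPM with LPS and 100.3 ± 73.2 CPM with vehicle (-1.40 ± 0.30, 0.0187).

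Cell type markers were measured beside the members because several of these genes are expressed outside microglia. Of 20 tested macrophage and microglia markers, 1 rose (Cd14), against 0.815% of all genes called higher, and 6 fell, against 0.68% called lower. Among the 6 were Cx3cr1 and C1qc (-0.58 ± 0.09, adjusted p = 0.00107). The summed CPM of the 20 markers was lower with LPS in 8 of 9 pairs, at 0.752 to 1.08 times the vehicle level, with a median of 0.882. Lyz2 alone, at a median of 10515 CPM, weighs heavily in that sum. Of 8 tested markers of border-associated macrophages, 1 fell (Mrc1, the mannose receptor, -1.28 ± 0.12, 1.86e-05), and their sum was lower in 6 of 9 pairs, at 0.604 to 1.36 times. The lowest ratios of this sum, 0.604 and 0.664, were in the pairs 59 and 60 and 57 and 58, where Mertk differed most. The macrophage and microglia sum was at 0.752 times, its lowest, in the pair 59 and 60 and at 0.841 times in the pair 57 and 58. The part of these shifts in the fall of Mertk, Gas6 and the other members was not tested.

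Markers of pericytes, smooth muscle and fibroblasts summed to 1416 to 6417 CPM over the 19 libraries and were lower with LPS in 5 of 9 pairs, at 0.824 to 1.08 times. Of the 17 tested, Dcn rose (0.43 ± 0.09, adjusted p = 0.0125) and Tagln (-0.57 ± 0.09, 0.00126) and Acta2 (-0.76 ± 0.19, 0.0473) fell, while Kcnj8 was at 0 in 17 libraries and Vtn in 18. Endothelial markers summed to 274 to 835 CPM and were lower with LPS in 6 of 9 pairs, at 0.707 to 1.46 times. Most of that sum was 1 gene, Pecam1, at 226 to 774 CPM, while Cdh5 had a median of 18.9 CPM. Of the endothelial markers, 0 of 10 were called, all 10 were below 0 (median -0.91), and the defining marker Cldn5 was at 0 in 15 libraries. Astrocyte markers summed to 62.7 to 365 CPM and were lower in 7 of 9 pairs, at 0.649 to 1.05 times, with Aldoc lower (-1.50 ± 0.30, 0.0119) as 1 of 9, and Gfap and Aqp4 each at 0 in 11 libraries. Oligodendrocyte markers, at 51.0 to 277 CPM, and neuron markers, at 61.4 to 297 CPM, were each lower in 6 of 9 pairs, and had 0 of 9 and 0 of 5 called, with Sox10 at 0 in 11 libraries and Rbfox3 in 18.

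Libraries 57 to 60, in which macrophage markers were low, were uneven across the members. Mertk was at 11.0 to 65.9 CPM there and at 56.1 to 163 CPM in the other 15 libraries, and Gas6 at 78.3 to 105 CPM against 79.5 to 534 CPM. Itgav was at 50.1 to 80.2 CPM in these 4 and at 23.8 to 92.7 CPM in the 15, and Pros1 at 88.5 to 100.0 CPM against 40.7 to 213 CPM. The pericyte, smooth muscle and fibroblast sum was 3210 to 6417 CPM in libraries 57 to 60 and 1416 to 5078 CPM in the 15.

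Across the 19 libraries, which share treatment, genotype and cell content as sources of variation, some members varied together in log2 CPM. Pearson's r was 0.86 between Gas6 and Itgb5 (Spearman's rho 0.81), 0.74 between Gas6 and Pros1 (0.69), 0.69 between Mertk and Gas6 (0.72) and -0.60 between Mertk and Itgav (-0.57). With group means removed, these Pearson values were 0.83, 0.67, 0.64 and -0.62. They are given as a description only.

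Among 8240 genes with a mean of at least 10 CPM, the genes most like each member over the 19 libraries were picked by Pearson's r of log2 CPM. Those most like Mertk were Itm2b (r = 0.96), Cd300c2 (0.95) and Cd84 (0.94), and those most like Gas6 were Cadm1 (0.92), Ulk2 (0.90) and Sat1 (0.89). Pros1 was closest to Arsb (0.81), Kitl (0.80) and Golm1 (0.78), Mfge8 to Arhgef25 (0.84), Phb (0.82) and Pdlim1 (0.82), and Itgav to Prrx1 (0.85), Irf2bpl (0.84) and Mical2 (0.81). Itgb5 was closest to Mdh1 (0.88), Gnaq (0.87) and Gas6, and Lrp1 to Nprl3 (0.81), Qki (0.78) and Colec12 (0.77). For Itgb3 the closest, Zfp592, had r = 0.94 but a Spearman's rho of 0.43, and Gtf3a (0.94) and Ubxn2b (0.93) followed; each of the 3 was at 0 in 1 library.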

How the data were processed

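Per gene symbol, the deposited files hold estimated counts, which the authors made, per the submitters' processing notes, with kallisto after FastQC and Trimmomatic; DESeq2 is named there too. Libraries were QuantSeq 3′ libraries with molecular identifiers and ERCC spike-ins, from RNA with an integrity number above 8.5, read as 100-base single ends, per the labels' protocols. Identifier collapse, build and versions were not given in the sources used here. Rounding the estimated counts to whole numbers changed 0 of them. Each gene had at least 10 counts over the libraries, and 0 rows were ERCC transcripts.

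Groups came from the titles. Tests were edgeR 4.0.16 quasi-likelihood F tests (limma 3.58.1, R 4.3.3) with TMM scaling, the filterByExpr rule (14113 genes kept, 2828 left out) and Benjamini-Hochberg adjustment over the genes tested, called under 0.05, in 1 fit over 19 libraries. A second fit added pairs of consecutive library numbers as a block; WT LPS replicate 1, numbered 5 in its label and 6 in its file, has no partner and adds no difference there. The pairing check is given with the results. CPM were computed here, with a prior count of 2 for log2 values. Intervals and floors cover counting or between-library error only. The steps were tested on simulated data with known folds. For the group fit these were drawn with a dispersion below the 1.05 of the data. For the fit with pairs a still lower dispersion was drawn, and it was not set against the spread of the data in that fit. How often changes are found at the spread of these data was therefore not tested. Alternatives were DESeq2 1.42.0, other scaling, no filter, other blocks and leaving out libraries. No 2 libraries of a group were copies: chi-square divided by its degrees of freedom was at least 82.8 over 36 pairings.

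The 8 members and all lists were chosen with earlier results of these data known. Some called genes of the lists are not reported here. All 8 members were tested in each comparison, and where only some changes are printed, the other members were not called. Genes of other lists were taken from up to 4 called members by size of change, otherwise up to 4 by mean CPM, and not all of these are printed. The 3 most similar genes per member are named. The lists cover other receptors, other bridging molecules, engulfment, integrins, Lrp1 partners, the vitamin K cycle, regulators, find-me signals, markers of 7 cell types and LPS-response genes. Promoter windows came from RefSeq (GRCm38.p6); the counts' build is not stated.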

Additional observations from a re-analysis of the deposited data

Results flagged for a closer look

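Lrp1 in APP vehicle replicate 2 was at 366 CPM, far below the other 4 APP vehicle libraries, the nearest of which was at 497 CPM and the highest at 535 CPM. Its gap to the nearest library was 0.772 of the group's range, above Dixon's 95% critical value of 0.710 for 5 libraries. This was 1 of 32 sets examined (8 genes in 4 groups), and chance alone marks about 1 in 20. In its pair, numbered 7 and 8, Lrp1 was at 219 CPM with LPS.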

How the results depend on the processing

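Of 1576 log2 changes of the members recomputed under alternatives, 1392 kept their direction and side of the threshold, 62 passed it (each with library pairs as a block) and 122 changed sign, none of the last a called value. All 184 mean CPM values, from unscaled library totals or with a library left out, stayed within 1 SD. The group fit's counts were the same with DESeq2's size factors in edgeR; with no filter on low counts, the averaged LPS count was 4 in place of 3. The cause of the differences below was not tested.

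DESeq2's Wald test called 89 genes for LPS in WT, 76 in APP and 178 averaged, 64 and 69 for APP against WT with vehicle and after LPS, and 99 for the interaction, with 0 members among them. Without libraries 57 to 60, the group fit called 4 genes in APP, 31 averaged and 1 for APP against WT after LPS, and Itgav averaged was -0.028. With title numbers as a replicate block over all groups, 15 genes were called for LPS averaged; Itgav averaged was -0.066, Gas6 in APP against WT with vehicle 0.011 and the Mertk interaction -0.25. With title numbers as a block within genotype, 2 genes were called in APP, 39 averaged and 1 for the interaction; Itgav averaged was -0.12 and the Mertk interaction -0.22. Title numbers paired WT libraries with correlations of -0.091 to 0.066.

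With consecutive library numbers as the replicate block, 21 genes were called in WT, 83 in APP and 211 averaged; Mfge8 was 0.19 in WT and 0.072 averaged, and the interactions were -0.24 for Mfge8, -0.018 for Itgb3 and -0.12 for Lrp1. Without libraries 57 to 60 the pairs gave 32, 173 and 282 genes and 1 for the interaction, with Mfge8 in WT at 0.034, Itgav averaged at -0.026 and interactions of -0.21 for Mfge8 and -0.057 for Lrp1. APP libraries alone gave 63 genes. DESeq2 with the pairs called 185 genes in WT, 615 in APP, 716 averaged and 58 for the interaction; Mfge8 was 0.18 in WT and 0.071 averaged, and the interactions were -0.22 for Mfge8, -0.0025 for Itgb3 and -0.10 for Lrp1. The alternatives without 57 to 60 in pairs, with APP alone, with DESeq2 pairs and with pairs left out were chosen after seeing the data.

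Leaving out 1 library or 1 pair in turn, with the fit each belongs to, the genes called ranged from 0 to 36 for LPS in WT, 0 to 142 in APP, 0 to 282 averaged, 0 to 1 for APP against WT after LPS and 0 to 1 for the interaction. By group alone, the averaged count was 0 to 11, lowest without WT vehicle replicate 2 and highest without APP LPS replicate 5. Members whose sign changed in such a fit, none of them called there, ranged as follows. For LPS in WT, Mfge8 ranged from -0.33 to 0.41. For LPS in APP, Mfge8 ranged from -0.26 to 0.11 and Itgav from -0.45 to 0.022. Averaged, Mfge8 ranged from -0.20 to 0.17 and Itgav from -0.10 to 0.13. For APP against WT with vehicle, Gas6 ranged from -0.50 to 0.063, Pros1 from -0.30 to 0.089, Mfge8 from -0.51 to 0.078 and Itgb5 from -0.031 to 0.36. After LPS, Itgav ranged from -0.0025 to 0.46, Itgb5 from -0.19 to 0.040 and Itgb3 from -0.54 to 0.080. The interaction ranged from -0.49 to 0.18 for Gas6, -0.089 to 0.42 for Mertk, -0.47 to 0.28 for Mfge8, -0.57 to 0.70 for Itgb3 and -0.24 to 0.17 for Lrp1.

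These limits apply at this depth: Itgb3 was below the floor in 1 library, the number of libraries leaves wide intervals for genotype, the pairs rest on unexplained numbers, and libraries 57 to 60 carry low macrophage markers.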
